A study of Mus musculus with 4 samples.

Results

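Interferon-stimulated genes (ISGs) were followed through the cell classes of mouse liver tumours with and without forced expression of KLF2, a Krüppel-like transcription factor. The list held 39 genes by name, and 37 of them had a row in the deposited matrices, out of 28889 genes in all. Mx1 and Mx2 were not analysed here. The genes were split by name into 27 type I members (25 with a row), for which interferon alpha and beta are the classical inducers, and 12 interferon-gamma-leaning members (12 with a row). Within them, the type I core was Isg15 with the Ifit and Oas genes (10 genes), and the gamma core was the Gbp genes with Irf1 and Socs1 (7 genes).

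The tumours came from male C57BL/6 mice, 18 weeks old, 10 weeks after hydrodynamic tail vein injection, which delivers plasmids to hepatocytes. Both groups received the SB100X transposase plasmid with pT3-EF1α-AKT and pT3-EF1α-c-MYC, and differed in a further plasmid, which was either pT3 empty vector or pT3-EF1α-KLF2. The EF1α promoter drives the transgenes in the cells that took up the plasmids. Of 4 libraries, labelled as biological replicates, 3 entered the comparisons: vector replicate 2 and KLF2 replicates 1 and 2. No matrix of vector replicate 1 was analysed here, so that each comparison rested on 1 vector library.

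Type I interferons signal through Ifnar1 and Ifnar2 to a complex that holds Stat2 and Irf9 and binds interferon-stimulated response elements (ISREs). Interferon-gamma, made mainly by T and NK cells, signals through Ifngr1 and Ifngr2 to factors that bind gamma-activated sites (GAS), and induces Irf1, which can bind ISREs in turn. Many genes answer both. In the liver, hepatocytes, endothelial cells and resident macrophages all respond, and the gamma-induced GTPases of the Gbp and Irg families are best known for the attack on intracellular pathogens.

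The upstream sequences show the elements that the members share. In a table of RefSeq windows on GRCm38.p6 (250 bases before to 50 after each start, 300 in all), 31 members had a window. Both strands were searched for GAAANNGAAA, the core of an ISRE, and for TTCNNNGAA, the core of a GAS, which reads the same on both strands. The ISRE word occurred in 13 of 21 type I members (61.9%) and in 8 of 10 gamma-leaning members (80.0%), against 3.99% of all 27025 genes in the table. The GAS word occurred in 4 of 21 type I members (19.0%), in 5 of 10 gamma-leaning members and in 9.55% of all genes. Gbp4, Usp18, Oas2, Rtp4, Zbp1 and Iigp1 were not used here. A match is a description of the letters, not evidence of binding. Each stretch printed next surrounds the ISRE word nearest to the start (for Irf1 the GAS word) in members whose levels are described most, and is read 5′ to 3′ on the strand of the gene, with ISRE and GAS words in capitals (overlapping words run together, and TTTC at the left end marks an ISRE word on the other strand).
Isg15, chr4:156200850-156200909, minus strand: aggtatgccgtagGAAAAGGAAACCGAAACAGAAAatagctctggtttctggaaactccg
Ifit1, chr19:34640779-34640838, plus strand: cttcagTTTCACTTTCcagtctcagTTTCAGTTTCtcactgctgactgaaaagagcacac
Ifit3, chr19:34583382-34583441, plus strand: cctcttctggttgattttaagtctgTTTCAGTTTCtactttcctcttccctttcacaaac
Ifit3b, chr19:34607778-34607837, plus strand: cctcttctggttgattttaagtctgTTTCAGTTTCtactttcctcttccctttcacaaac
Oas1a, chr5:120907526-120907564, minus strand: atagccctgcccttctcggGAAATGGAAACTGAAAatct
Gbp2, chr3:142620579-142620638, plus strand: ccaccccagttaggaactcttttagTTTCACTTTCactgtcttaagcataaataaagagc
Gbp7, chr3:142530258-142530317, plus strand: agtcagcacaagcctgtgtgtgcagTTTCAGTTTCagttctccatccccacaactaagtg
Irgm1, chr11:48871421-48871469, minus strand: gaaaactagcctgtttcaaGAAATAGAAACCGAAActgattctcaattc
Igtp, chr11:58199497-58199555, plus strand: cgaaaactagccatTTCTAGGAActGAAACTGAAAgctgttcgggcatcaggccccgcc
Irgm2, chr11:58214888-58214947, plus strand: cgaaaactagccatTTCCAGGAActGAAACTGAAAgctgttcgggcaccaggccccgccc
Irf1, chr11:53769899-53769957, plus strand: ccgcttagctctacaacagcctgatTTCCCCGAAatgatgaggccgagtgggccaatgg
Socs1, chr16:10785579-10785638, minus strand: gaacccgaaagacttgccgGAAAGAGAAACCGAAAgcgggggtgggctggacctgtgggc
Ifit3 and Ifit3b printed the same stretch, and Igtp and Irgm2 nearly so. These are close copies, and the annotated Igtp gene (chromosome 11, 58199556 to 58207591) lies within Irgm2 (58199618 to 58222782) for most of its length, so reads may be split between such pairs and their single values are uncertain, as are those of the Gbp and Oas paralogs.

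The cells differed between libraries in ways that bear on every value below. After filtering, 8403, 6209 and 11103 cells remained in vector 2, KLF2 1 and KLF2 2 (this order holds throughout), with a median of 3191, 8912 and 5854 unique molecular identifiers (UMIs) and a median mitochondrial share of 11.9%, 0.223% and 0.345%. Clusters were made without the members and grouped into 7 classes by markers. T/NK cells were 36.2%, 1.42% and 3.39% of cells, and the tumour/parenchymal compartment (hepatocyte-like, cholangiocyte-like and unnamed clusters low in Ptprc, called the compartment) was 6.89%, 84.1% and 75.7%. In every class the vector cells and nearly all KLF2 cells fell into different clusters. The myeloid cells of vector were led by H2-Ab1, H2-Aa and H2-Eb1, and those of KLF2 by Arg1, Apoe and C1qa or by Plac8, Mcpt1 and H2-Ab1. The compartment of vector was 579 hepatocyte-lineage-like cells, of which the KLF2 libraries held 10 and 44. Another 1679 of the 8403 vector cells were in 2 unnamed clusters and in no class. T-cell markers (Cd3e, Cd3d and 6 others) reached 6.19% to 14.6% of their T/NK level in the other classes of vector and 0.0979% to 1.19% in those of KLF2, so T-cell signal in other classes was higher in vector than in either KLF2 library. Klf2 itself was at 138, 327 and 380 UMIs per 1000000 in the compartment. Myc was at 47.9, 685 and 478 there and Akt1 at 276, 1274 and 736, although both groups received the AKT and c-MYC plasmids. A higher level in the KLF2 compartment was thus not particular to Klf2. In T/NK cells Klf2 was at 634, 344 and 348, highest in vector. Cell barcodes are names here, and 550 to 1146 names were shared between pairs of the 3 libraries.

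Across classes, the gamma core was lower in both KLF2 libraries than in vector in each of the 7 classes, while the type I core had no common direction. Levels are UMIs per 1000000 UMIs of the class in a library (CPM), summed over the genes of a core. In T/NK cells the gamma core was at 499.8, 305 and 271 CPM. Myeloid cells had 519, 120 and 191 CPM. Endothelial cells had 407, 272 and 241 CPM, and the compartment, with the lowest values, 115, 29.6 and 72.3 CPM. The KLF2 libraries lay below vector in all 4 of these classes and did not overlap it. The type I core went 270, 159 and 355 CPM in T/NK cells, so that vector lay between the KLF2 libraries. It did so too in endothelial cells (449, 515 and 242 CPM) and in the compartment (97.2, 22.9 and 146 CPM). Both KLF2 libraries were below vector in 3 of the 7 classes. These were myeloid cells (666, 193 and 402 CPM), B/plasma cells (147.5, 18.9 and 60.3 CPM) and mesenchymal cells (387, 364 and 349 CPM). In neutrophils both were above it (559, 639 and 845 CPM).

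**Figure D1:**
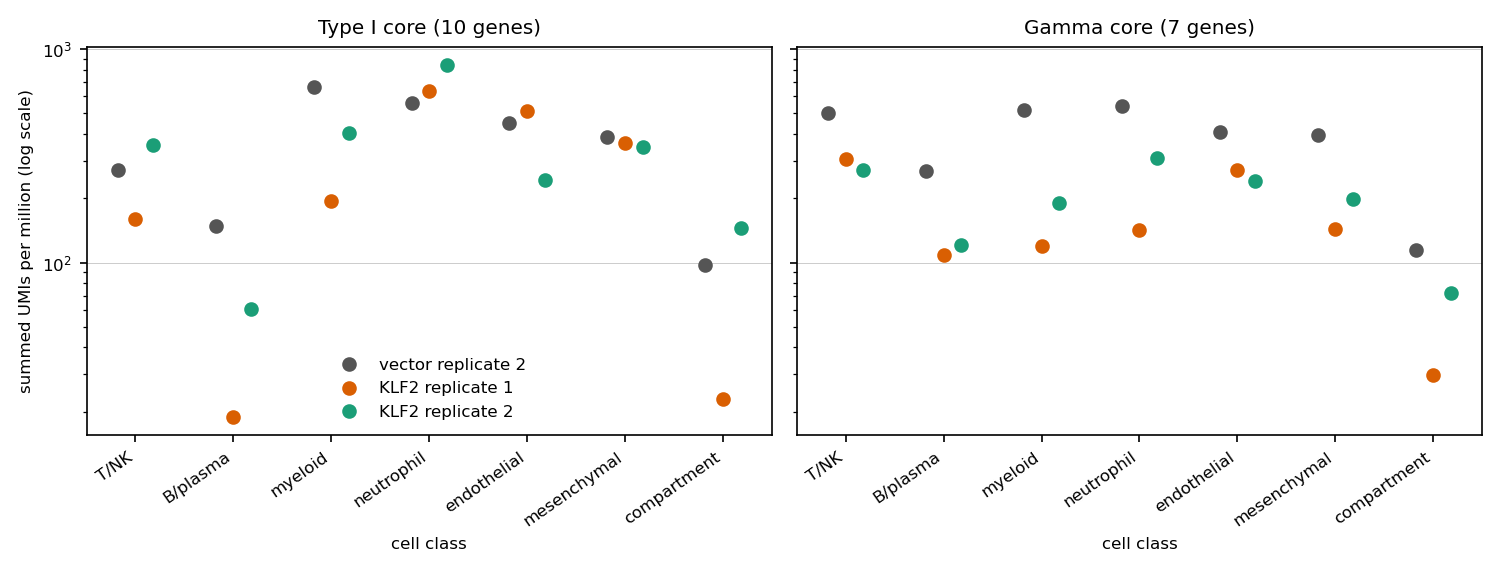
Summed level of the type I core (10 genes, left) and the gamma core (7 genes, right) by cell class, in CPM on a log axis, with 1 point per library. The gamma core of both KLF2 libraries lies below that of vector in all 7 classes, and the type I core of KLF2 replicate 2 lies above vector in T/NK cells, neutrophils and the compartment.

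Each class was then tested gene by gene on UMIs summed per library (edgeR's quasi-likelihood test, 2 KLF2 libraries against 1 vector library, Benjamini-Hochberg adjustment over all genes of the class, called below 0.05). The p-values rest on the spread between 2 KLF2 mice, with 1 residual degree of freedom, moderated across the genes of the class. A small p-value of a gene thus also draws on the spread of other genes. Of the 12 gamma-leaning members none was called higher in any class, and those called lower were 4 of 12 tested in T/NK cells, 5 of 6 in B/plasma cells, 11 of 12 in myeloid cells, 0 of 6 in neutrophils, 8 of 12 in endothelial cells, 9 of 12 in mesenchymal cells and 10 of 12 in the compartment. Among all genes tested the share called lower was 8.53%, 7.39%, 8.18%, 0.521%, 14.2%, 7.62% and 10.6% in the same order. Type I members called lower were 1 of 23, 3 of 11, 8 of 25, 0 of 15, 7 of 23, 4 of 22 and 4 of 25. One type I member, Usp18, was called higher, in T/NK cells, B/plasma cells and the compartment. The share of all genes called higher was 10.6%, 7.49%, 13.4%, 0.182%, 15.3%, 9.66% and 14.4%. The median log2 change of the gamma-leaning members ran from -0.46 in T/NK cells to -3.81 in the compartment, and that of all genes from 0.02 in endothelial cells to 0.74 in the compartment. These counts are of the members tested, and a member that passed the filter on low counts through vector alone had to lie below vector. In B/plasma cells this held for the gamma-leaning members Gbp4, Gbp7, Ifi47, Irgm1 and Socs1, and in neutrophils for Gbp2, Gbp7 and Igtp. The gamma-leaning counts of those classes are therefore no result about the members. Of the type I members called lower, the same held for Xaf1 in B/plasma cells and Oas1a in mesenchymal cells.

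**Figure D2:**
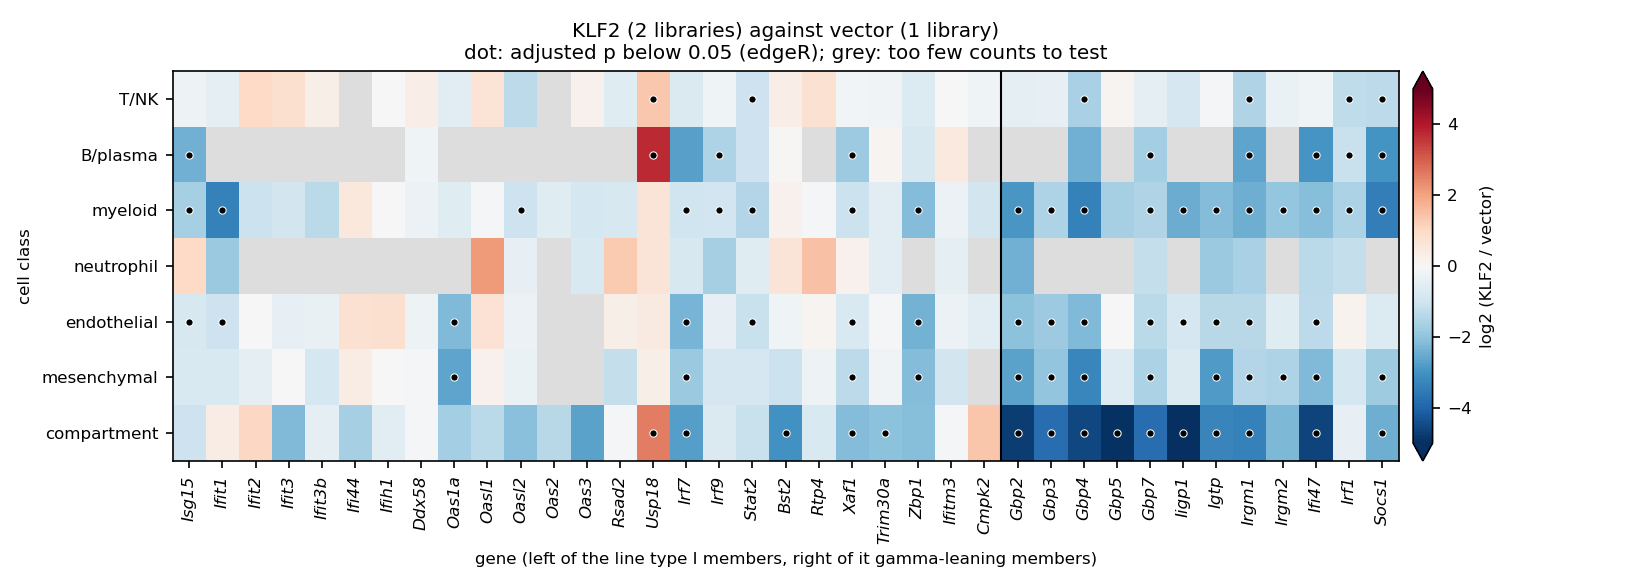
Log2 change of each member (columns, type I left of the line, gamma-leaning right of it) in KLF2 against vector in each class (rows), from edgeR. Dots mark an adjusted p below 0.05 and grey marks too few counts. Blue fills most of the right block, with 11 of 12 gamma-leaning members called lower in myeloid cells, and red with a dot appears only for Usp18.

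T/NK cells are the main source of interferon-gamma, and the transcript of Ifng itself was at 174, 142 and 85.8 CPM there (log2 change -0.89 ± 0.28 SE, edgeR adjusted p = 0.0107). Irf1, the transcription factor that interferon-gamma induces first, was at 187, 85.1 and 91.5 CPM and fell (log2 -1.28 ± 0.28, adjusted p = 7.49e-05, edgeR). Socs1, which blocks JAK kinases and so closes the response, was at 86.5, 29.6 and 46.1 CPM (log2 -1.30 ± 0.31). The GTPases Gbp4 (81.5, 35.1 and 28.4 CPM, log2 -1.60 ± 0.33) and Irgm1 (38.1, 18.5 and 13.9 CPM, log2 -1.50 ± 0.39) fell with them. In all 4 both KLF2 libraries were below vector. Stat2 was the type I member that fell, from 34.1 to 14.8 and 20.8 CPM. The other gamma-leaning members did not pass, and Gbp7 and Ifi47 were highest in KLF2 1 in cells gated on T-cell genes, at 97.0, 121 and 55.3 CPM and at 97.3, 134 and 74.8 CPM. The T/NK class of KLF2 1 was 88 cells. DESeq2 called 1 member in this class (Irf1) and an edgeR fit that shared the spread between classes called 0, with log2 changes in the same direction. The summed dissociation-stress genes were 9111, 3837 and 5462 CPM in these cells. Their part in the result was not tested.

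NK cells could be set apart only as a small gate inside that class (no UMI of Cd3d, Cd3e, Cd3g or Trac and at least 2 of 5 NK genes), with 44, 10 and 24 cells, and no test was made. The gamma core was at 444, 207 and 230 CPM in them, from 74, 11 and 21 UMIs. The type I core was at 276, 0 and 384 CPM, from 46, 0 and 35 UMIs. The gamma core was thus lower in both KLF2 libraries, as in T cells of the same class, where it was at 483, 320 and 275 CPM in 2467, 75 and 293 cells.

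In B/plasma cells Socs1, Ifi47 and Irgm1 fell furthest among the members called. Ifi47, an Irg-family GTPase, went from 57.3 to 9.43 and 7.24 CPM (log2 -2.94 ± 0.62, edgeR adjusted p = 5.32e-05). Socs1 went from 42.7 to 7.07 and 4.82 CPM (log2 -2.99 ± 0.84). Irgm1 (log2 -2.63), Gbp7 (-1.70) and Irf1 (-1.10) also fell. These rest on few molecules, since Ifi47 had 47, 4 and 3 UMIs and Socs1 35, 3 and 2. Socs1, Ifi47, Irgm1 and Gbp7 passed the filter on low counts through vector alone. Among type I members Isg15, a ubiquitin-like protein that is coupled to other proteins, was at 67.1, 0 and 28.9 CPM (log2 -2.38 ± 0.52). Xaf1, a promoter of apoptosis, fell by 1.80 and Irf9 fell by 1.54 on the log2 scale. Xaf1 too passed the filter through vector alone and so had to lie below vector. Usp18 had 2, 14 and 19 UMIs, or 2.44, 33.0 and 45.8 CPM, and passed the filter through the KLF2 libraries alone. No member was called by DESeq2. With the signal of T/NK, myeloid and endothelial cells taken off by the level of their markers, 3 of the 8 members called lower remained (Ifi47, Irf9 and Irgm1). T-cell markers summed to 506, 14.1 and 33.8 CPM in this class (8, 4 and 5 of 8 detected).

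Myeloid cells showed the broadest fall, with 19 of 37 members called lower and none higher. Socs1 was at 57.4, 7.17 and 5.98 CPM (log2 -3.46 ± 0.28, edgeR adjusted p = 0.000246). Gbp4 was at 34.4, 2.49 and 5.52 CPM (log2 -3.36 ± 0.41), and Gbp2 at 137, 13.0 and 32.0 CPM (log2 -2.91 ± 0.44). Both KLF2 libraries lay far below vector for these GTPases, which coat the vacuoles of parasites and bacteria. The Irg family fell with them, Iigp1 from 63.3 to 12.9 and 15.6 CPM, Irgm1 from 73.2 to 15.2 and 17.9 CPM and Igtp from 43.6 to 10.1 and 14.0 CPM. Ifi47 (log2 -2.12) and Irgm2 (-1.93) followed. Among type I members Ifit1, which binds viral RNA without the cap methylation of host RNA, was at 101, 3.37 and 19.9 CPM (log2 -3.38 ± 0.68). In ratio, KLF2 1 lay further from KLF2 2 than KLF2 2 did from vector. Zbp1, a sensor of Z-form nucleic acids, was at 125, 33.7 and 35.3 CPM (log2 -2.18 ± 0.26). The remaining 9 fell by 0.95 to 1.66 on the log2 scale and were Isg15, Irf1, Gbp3, Gbp7, Stat2, Xaf1, Oasl2, Irf7 and Irf9. Rsad2, the antiviral enzyme viperin, did not pass, at 57.2, 27.4 and 54.5 CPM. DESeq2 called 14 members lower, all among these 19. The vector and KLF2 cells came from different clusters here, and the summed macrophage markers were 3406, 7421 and 7396 CPM. Dendritic-cell markers summed to 319, 103 and 131 CPM (8 of 8 detected in each library) and T-cell markers to 305, 12.1 and 20.8 CPM, both highest in vector, as the called members were. The part of these markers in the fall was not tested.

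Neutrophils, with 57, 55 and 130 cells, had no member called by edgeR and none by DESeq2. Of the 21 members tested, 2 had an unadjusted p below 0.05 (edgeR), against 19.6% of all 3836 genes tested. The direction of the gamma core was shared with the other classes, at 539, 142 and 309 CPM. Gbp4 had 2, 0 and 0 UMIs. Isg15 went the other way, at 176, 395 and 484 CPM, and Rsad2 was at 58.8, 270 and 114 CPM, above vector in both KLF2 libraries without passing the test. At this depth 1 UMI was worth 9.80, 4.29 and 2.47 CPM.

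In endothelial cells gamma-induced GTPases and 7 type I members were lower in KLF2. The vector cells were in a cluster led by Fabp4, Col4a1 and Tie1. Nearly all KLF2 cells were in another, led by Gpihbp1, Igfbp3 and Ctla2a, with Stab2 and Clec4g among its leading genes. The part of this difference in the fall was not tested. Gbp4 was at 78.4, 20.1 and 23.4 CPM (log2 -2.22 ± 0.30, edgeR adjusted p = 6.06e-12). Gbp2 went from 79.6 to 34.96 and 18.5 CPM (log2 -2.04 ± 0.30). Gbp3 (log2 -1.80), Igtp (-1.40), Irgm1 (-1.39), Gbp7 (-1.34), Ifi47 (-1.32) and Iigp1 (-0.85) fell as well, whereas Irf1 and Socs1 did not pass. Irf1 was above vector in both KLF2 libraries, at 73.0, 97.45 and 116.7 CPM. For Socs1, at 17.1, 7.4 and 18.5 CPM, vector lay between them. Of the type I members, Irf7, the factor that amplifies type I interferon, was at 85.7, 25.4 and 19.9 CPM (log2 -2.34 ± 0.30). Zbp1 was at 39.2, 10.6 and 9.61 CPM (log2 -2.35 ± 0.37), and Oas1a, which makes the 2-5A activator of RNase L, at 29.8, 10.6 and 6.87 CPM (log2 -2.21 ± 0.41). Stat2, Ifit1, Isg15 and Xaf1 fell by 0.75 to 1.11 on the log2 scale. For Isg15 the libraries overlapped, at 265, 278 and 136 CPM, and for Ifit1 KLF2 1 (47.7 CPM) was close to vector (48.9 CPM), so for both genes it was KLF2 2 that lay apart from vector. DESeq2 called 4 members (Gbp2, Gbp4, Irf7 and Zbp1), and the fit with a shared spread called 7. The summed dissociation-stress genes, lower in both KLF2 libraries in T/NK cells, were higher in both at 1613, 3515 and 5365 CPM in endothelial cells, 2280, 2626 and 7356 CPM in mesenchymal cells and 1806, 5037 and 8292 CPM in the compartment. Their part in the results of these classes was not tested.

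Mesenchymal cells had 13 members called lower, 9 of them gamma-leaning, and none higher. Gbp4 was at 47.8, 6.31 and 8.61 CPM (log2 -3.26 ± 0.41, edgeR adjusted p = 0.000696). Igtp was at 51.3, 7.02 and 14.6 CPM (log2 -2.84 ± 0.44), and Gbp2 at 129.9, 35.8 and 24.1 CPM (log2 -2.69 ± 0.37). The KLF2 libraries lay far below vector in all 3. Oas1a (22.5, 6.31 and 4.30 CPM), Zbp1 (55.1, 17.5 and 18.9 CPM) and Irf7 (70.0, 27.4 and 30.1 CPM) were the type I members that fell most, by 1.86 to 2.63 on the log2 scale. Oas1a, with 65, 9 and 5 UMIs, passed the filter on low counts through vector alone and so had to lie below vector. Ifi47, Gbp3, Socs1, Gbp7, Irgm2, Irgm1 and Xaf1 fell by 1.30 to 2.21. Iigp1 did not pass, at 174, 156 and 158 CPM. DESeq2 called 5 members (Gbp2, Gbp4, Ifi47, Igtp and Zbp1). A coarser clustering, in which the class held 355, 826 and 529 cells, called 22, all lower. Of its KLF2 cells, 736 of 826 and 365 of 529 were in the compartment in the clustering used here, in a cluster led by Ibsp, Col1a1 and Col1a2 at the coarser setting, so the 22 calls come from another mix of cells.

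**Figure D3:**
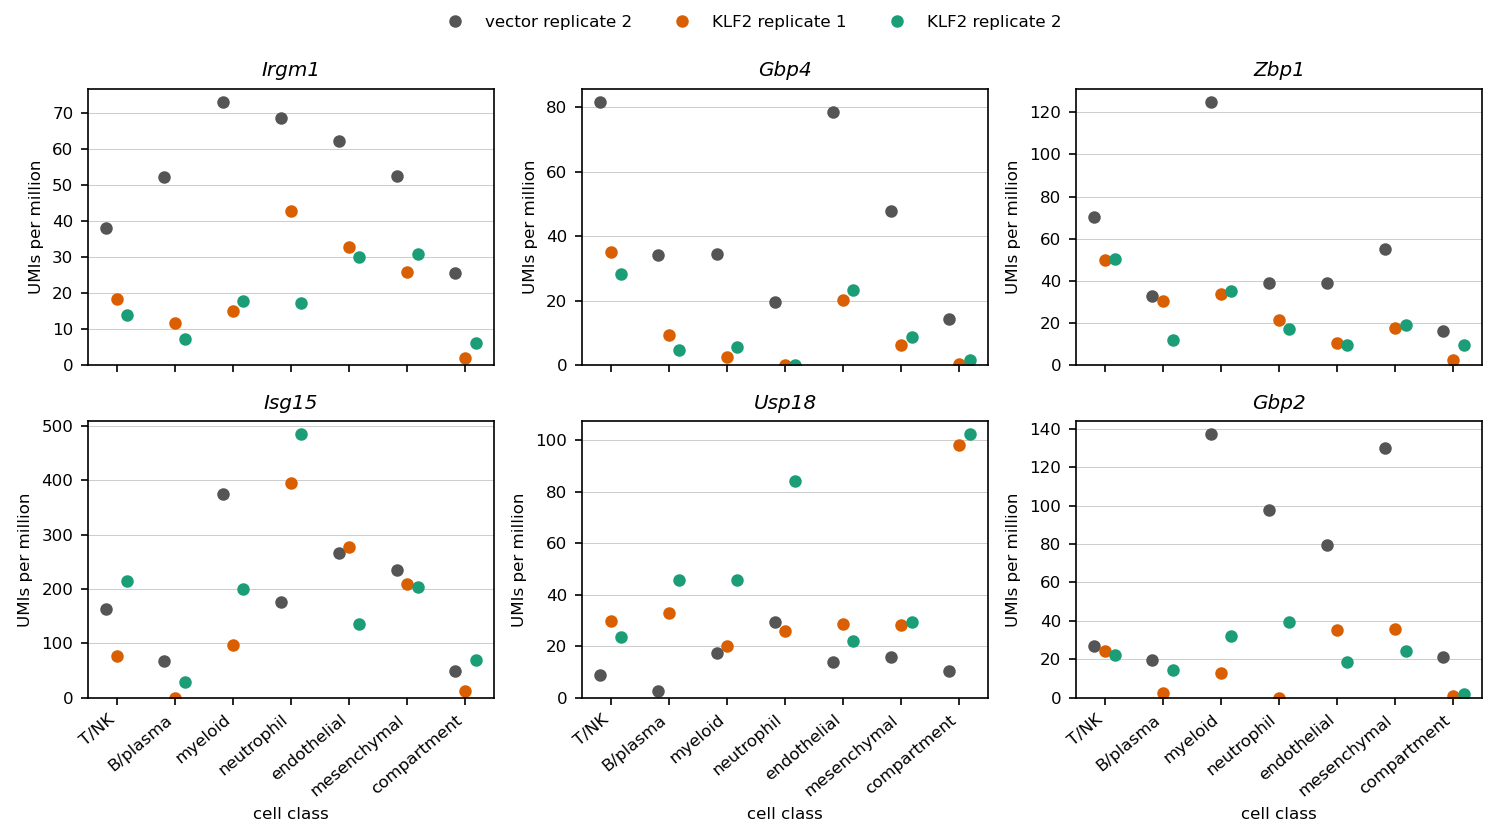
Level of 6 members in each class and library, in CPM on linear axes that start at 0, with 1 point per library. Irgm1, Gbp4, Zbp1 and Gbp2 are highest in vector in all 7 classes, Isg15 has no common order, and Usp18 is highest in the compartment of the KLF2 libraries (98.4 and 102 against 10.3 in vector).

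In the compartment 14 members were called lower and Usp18 higher. The scale of this class was shifted, the median of all genes being at 0.74 log2, so changes are also given against that median. Iigp1 was at 42.8, 1.30 and 2.59 CPM (log2 -5.19 ± 0.47, edgeR adjusted p = 0.00414), or -5.94 against the median. Gbp2 went from 21.2 to 0.920 and 1.69 CPM (log2 -4.76 ± 0.47). Gbp4 went from 14.4 to 0.507 and 1.54 CPM (log2 -4.54 ± 0.71) and Ifi47 from 26.7 to 0.755 and 2.86 CPM (log2 -4.62 ± 0.79). Gbp5 had 10, 9 and 28 UMIs and a log2 change of -4.93. Gbp3 (log2 -3.81), Gbp7 (-3.80), Irgm1 (-3.36), Igtp (-3.29) and Socs1 (-2.45) fell too, so that 10 of 12 gamma-leaning members were lower, all but Irgm2 and Irf1. Irf1 was at 32.2, 19.8 and 60.8 CPM, with vector between the KLF2 libraries. Bst2, the membrane tether that holds back enveloped viruses, was the type I member that fell most, at 125, 20.1 and 31.4 CPM (log2 -3.02 ± 0.33), before Irf7, Xaf1 and Trim30a (log2 -2.76, -2.19 and -2.04). This comparison set hepatocyte-lineage-like cells of vector against mainly other cells of KLF2. Restricted to the 579, 10 and 44 hepatocyte-lineage-like cells, edgeR called 0 of 20 members tested (0 at an unadjusted p below 0.05, with 2.37% of all genes called), and the gamma core was at 115, 56.7 and 221 CPM, from 1 of 7 genes detected in KLF2 1. Iigp1 then had a log2 change of 1.27. With the signal of T/NK, myeloid and endothelial cells taken off, 7 of the 14 lower calls remained (Bst2, Gbp2, Gbp3, Igtp, Iigp1, Irgm1 and Xaf1), and the gamma core was at 35.8, 26.2 and 68.4 CPM, no longer highest in vector. Ifng, a T and NK cell transcript, was itself at 15.1, 0.0708 and 0.187 CPM in the compartment, and at 9.80, 0 and 0 CPM in endothelial cells.

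Usp18 stood apart from all other members. It encodes the protease that removes Isg15 from proteins and that also binds Ifnar2 and dampens the type I receptor. In the compartment it was at 10.3, 98.4 and 102 CPM (log2 2.55 ± 0.29, edgeR adjusted p = 0.00635, or 1.81 against the median of all genes), with the KLF2 libraries close to each other and far from vector. The vector cells there were hepatocyte-lineage-like and were set against mainly other cells. In hepatocyte-lineage-like cells alone Usp18 was at 10.3, 0 and 48.45 CPM, from 30, 0 and 21 UMIs, so that vector lay between the KLF2 libraries. T/NK cells had 8.66, 29.6 and 23.4 CPM (log2 1.36 ± 0.44) and B/plasma cells 2.44, 33.0 and 45.8 CPM (log2 3.72 ± 0.98). In myeloid, endothelial and mesenchymal cells the KLF2 libraries were above vector without passing. Transcripts of the compartment moved alongside in these classes, Myc from 32.5 to 142 and 138 CPM in T/NK cells and from 31.7 to 467 and 490 CPM in B/plasma cells, and cholangiocyte markers from 29.3 to 111 and 366 CPM in T/NK cells. Their part in the rise of Usp18 outside the compartment was not tested. Within the compartment, Usp18 was highest in the cluster led by Car3, Fxyd6 and Mt3 (167 and 158 CPM in KLF2 1 and KLF2 2), next in that led by Lsamp, Cntn4 and Unc5c (84.1 and 104 CPM) and in the cholangiocyte-like cluster led by Krt8, Krt18 and S100a14 (62.7 and 69.4 CPM). The Car3 cluster had the lowest type I core of them, 8.75 and 25.8 CPM, so the order of the clusters by Usp18 was not their order by the type I core. After thinning each cell to 1000 UMIs, Usp18 was found in 1.43% of 558 vector cells (95% Wilson interval 0.728% to 2.80%), 7.36% of 5219 KLF2 1 cells and 7.71% of 8401 KLF2 2 cells of the compartment. Unthinned shares were 4.32%, 40.8% and 40.1%, at median depths of 3134, 9404 and 6875 UMIs, and intervals cover counting error only. T/NK cells had 0.875%, 0 of 88 cells (upper limit 4.18%) and 4.26% after the same thinning.

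**Figure D4:**
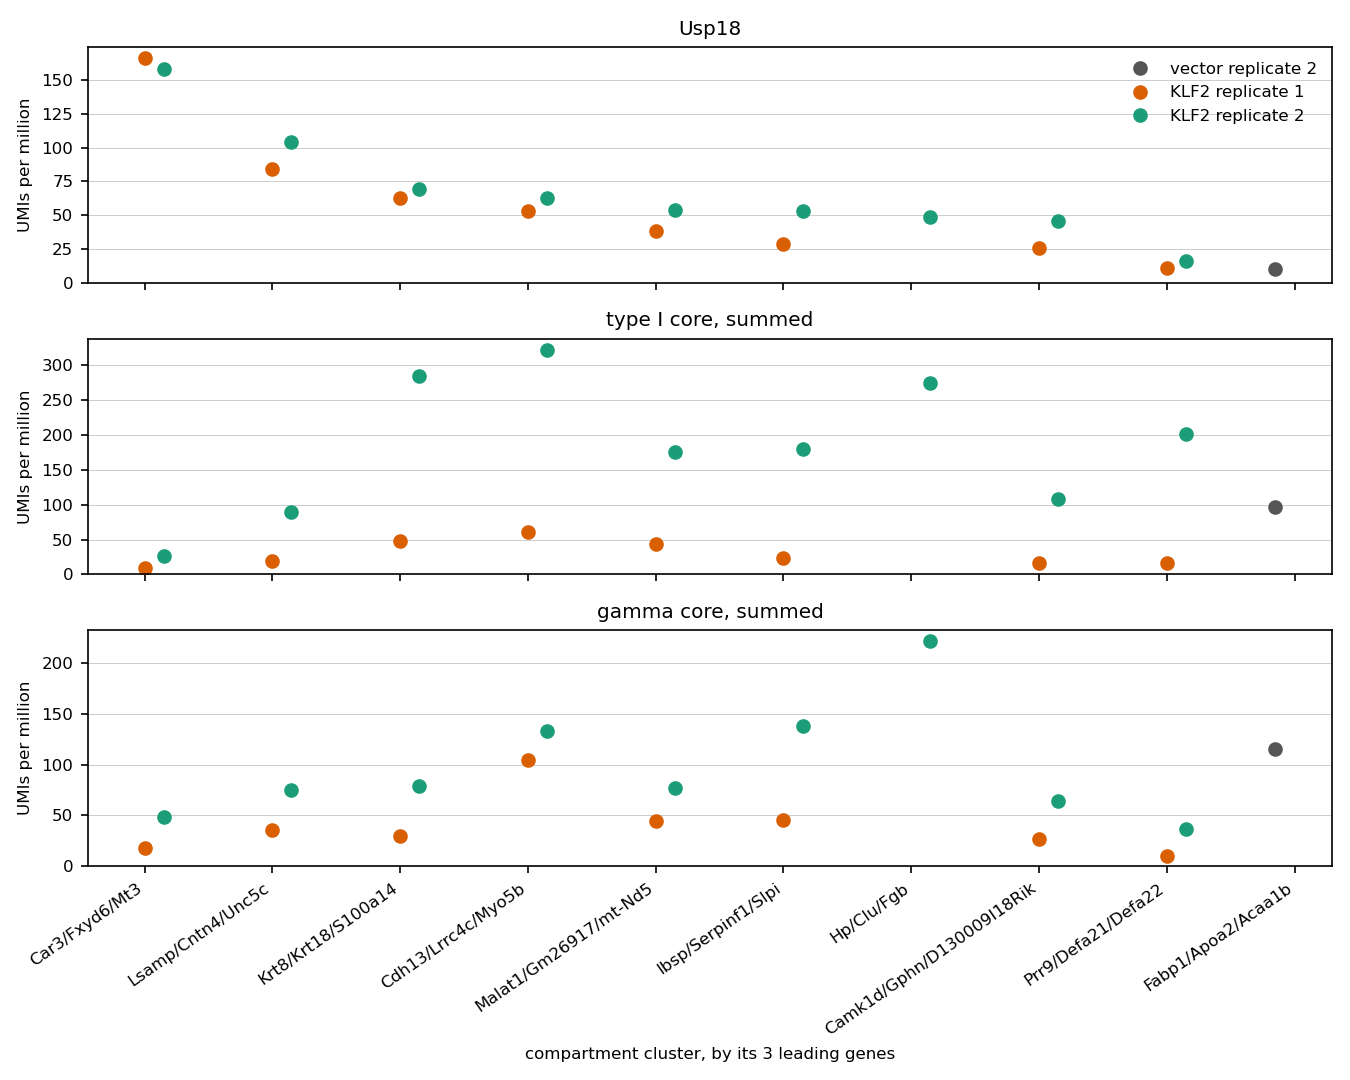
Level of Usp18 (top), of the summed type I core (middle) and of the summed gamma core (bottom) in each cluster of the compartment with at least 20 cells of a library, in CPM, with 1 point per library. Clusters are named by their 3 leading genes and ordered by Usp18, which is highest in the Car3 cluster (167 and 158), where the type I core is lowest (8.75 and 25.8), and KLF2 replicate 2 lies above KLF2 replicate 1 for both cores in each cluster that holds both.

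The KLF2 libraries also differed from each other. In the compartment all 25 type I members and 11 of 12 gamma-leaning members were lower in KLF2 1 than in KLF2 2. Isg15 was at 49.3, 11.6 and 69.0 CPM, Ifit1 at 8.56, 2.45 and 34.6 CPM and Rsad2 at 6.85, 2.32 and 19.7 CPM, so that KLF2 1 was below vector and KLF2 2 above it for all 3. In myeloid cells 22 of 25 type I and 11 of 12 gamma-leaning members had the same order of the KLF2 libraries. In T/NK cells 19 of 25 type I members had it, but only 4 of 12 gamma-leaning members. Endothelial cells had the opposite order for 20 of 25 type I members, with Rsad2 at 95.1, 302 and 32.3 CPM. Only 3 of 12 gamma-leaning members had the order of the compartment there. The share of all genes in either order was not counted, so these counts are no result about the members. Of the 12 gamma-leaning members, both KLF2 libraries lay below vector for 12 in myeloid cells, 11 in B/plasma cells, neutrophils and the compartment, 10 in mesenchymal cells, 8 in endothelial cells and 7 in T/NK cells. In B/plasma cells Gbp4, Gbp7, Ifi47, Irgm1 and Socs1, and in neutrophils Gbp2, Gbp7 and Igtp, passed the filter through vector alone and so had to lie below it. Among the gamma-leaning members that were tested these were 12 of 12 in myeloid cells, 6 of 6 in B/plasma cells, 6 of 6 in neutrophils, 11 of 12 in the compartment, 10 of 12 in mesenchymal cells, 8 of 12 in endothelial cells and 7 of 12 in T/NK cells. Among all genes tested the share was 26.1%, 30.2%, 25.2%, 19.0%, 18.8%, 22.2% and 26.4% in the same order.

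Upstream of the members, a list of 31 genes of the interferon pathway (ligands, receptors, kinases, transcription factors, sensors and inhibitors, none of them a member) was read in the same fits. Of those tested, 3 of 21 fell in T/NK cells, 1 of 17 in B/plasma cells, 10 of 26 in myeloid cells, 5 of 20 in endothelial cells, 3 of 21 in mesenchymal cells and 7 of 27 in the compartment, against 8.53%, 7.39%, 8.18%, 14.2%, 7.62% and 10.6% of all genes. In myeloid cells, endothelial cells and the compartment 2, 3 and 1 rose, against 13.4%, 15.3% and 14.4% of all genes. The fall in B/plasma cells and all 3 counts of rises were thus below the share over all genes. In neutrophils edgeR called 0 of 13, with 4 at an unadjusted p below 0.05 (19.6% of all genes). Irf3, which turns on interferon genes downstream of nucleic acid sensors, fell in 5 classes, and was at 59.4, 29.6 and 30.9 CPM in T/NK cells (log2 -1.16 ± 0.34, edgeR adjusted p = 0.00566) and at 38.3, 24.6 and 24.4 CPM in myeloid cells. Among the receptors, Ifngr1 fell in endothelial cells (56.7, 46.6 and 35.7 CPM) and in the compartment (20.9, 12.9 and 12.3 CPM), and in T/NK cells did not pass, at 108, 166 and 163 CPM. Ifngr2 rose in endothelial cells, at 29.8, 82.6 and 54.2 CPM. Irf8, a myeloid factor that interferon-gamma also induces, was at 399, 171 and 141 CPM in myeloid cells (log2 -1.68 ± 0.28). Socs3, an inhibitor of cytokine signalling induced mainly through Stat3, rose where it passed, from 17.4 to 196 and 319 CPM in endothelial cells (log2 3.51 ± 0.37), from 92.7 to 279 and 226 CPM in myeloid cells and from 12.0 to 51.6 and 54.1 CPM in the compartment.

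Whether the KLF2 change differed between classes was tested in one joint edgeR fit, in which 5 of 37 members passed against 7.74% of the 12361 genes tested. They were Iigp1, Gbp7, Bst2, Ifi47 and Trim30a. The fit treated the class sums of a library as independent although they share a mouse, so its p-values may be too small. The spread rests on 2 KLF2 mice. For Usp18 the adjusted p was 0.249, so its rise was not shown to differ between classes.

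Levels also differed between classes. In one edgeR fit over all class sums with the library as a block, 34 of 37 members differed between the 7 classes, against 60.5% of all 12361 genes tested. The classes were built without the members but from other genes of the same cells. The compartment was the low class, with 29 members called lower than the mean of the other classes (13.1% of all genes) and 1 higher (14.0%), which was Usp18. Gbp5 (log2 -4.24 ± 1.00), Trim30a (-3.65 ± 0.39) and Ifit3b (-3.38 ± 0.73) stood lowest. Without KLF2 1 the count of members that differed was 22, without KLF2 2 it was 17 and without vector it was 36.

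The other classes differed in which members stood high. In T/NK cells 7 were called higher (13.6% of all genes) and 2 lower (9.9%), and 5 of the 7 were gamma-leaning, led by Gbp4 (log2 2.49 ± 0.45) and Ifi47 (2.33 ± 0.51), with Oas3 (2.29 ± 0.46) among the type I members. Myeloid cells had 10 higher (12.7%) and 0 lower (4.47%), all type I, with Oas3 (2.13 ± 0.40), Oas2 (2.04 ± 0.36) and Oas1a (1.96 ± 0.35) as the largest, 3 enzymes of the RNase L pathway. Endothelial cells had 14 higher (17.1%) and 0 lower (8.33%), with Ifi44 at 21.3, 50.8 and 44.0 CPM (3.42 ± 0.40), Rsad2 (2.70 ± 0.59) and Iigp1 (2.44 ± 0.58). Bst2 was at 386, 460 and 425 CPM there, against 29.4, 17.2 and 89.0 CPM in neutrophils. Mesenchymal cells had 7 higher (17.2%) and 0 lower (6.07%), led by Iigp1 (3.40 ± 0.55), and Ifitm3, a membrane protein that stops viral fusion, was at 1790, 1238 and 1597 CPM. Neutrophils had 9 higher (7.01%) and 0 lower (3.66%), led by Oas3 (3.94 ± 0.56), Rsad2 and Oasl2 (2.90 and 2.88). B/plasma cells had 0 higher (7.82%) and 4 lower (4.33%), Rtp4, Isg15, Oasl2 and Ifitm3, by 1.79 to 2.70 on the log2 scale. Where 0 members are given, the same edgeR fit called none at the adjusted threshold.

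**Figure D5:**
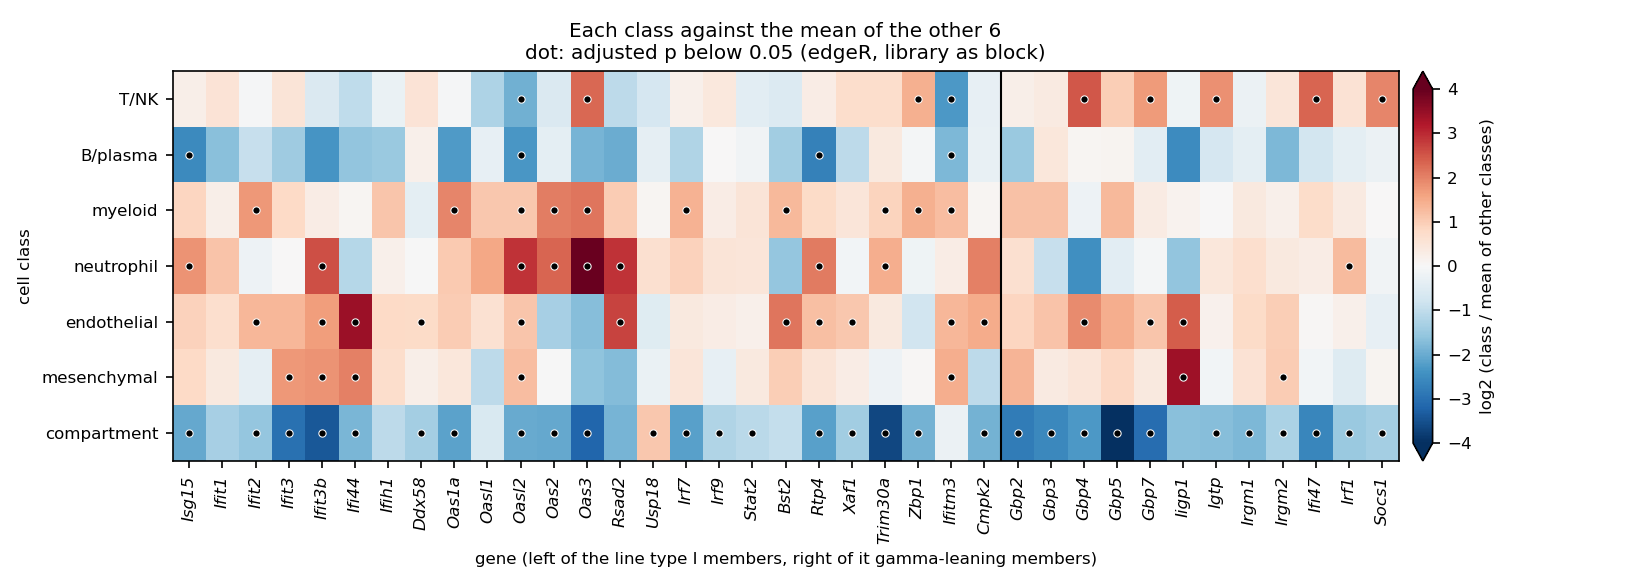
Log2 difference of each member (columns, type I left of the line, gamma-leaning right of it) between a class and the mean of the other 6 (rows), from edgeR with the library as a block, with dots at an adjusted p below 0.05. The bottom row is blue for 29 called members and red for Usp18 (1.06), T/NK cells are red for 5 gamma-leaning members and myeloid cells for 10 type I members.

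Counted as cells, the gamma-leaning genes were again found more often in vector than in either KLF2 library, in all 7 classes. After thinning to 1000 UMIs per cell, a gamma-leaning UMI was found in 49.3% of 2972 vector T/NK cells, 36.4% of 88 and 34.3% of 376 KLF2 cells. In myeloid cells the shares were 44.4% of 757 (95% Wilson interval 40.9% to 47.9%), 15.1% of 568 (12.4% to 18.3%) and 22.3% of 1650 (20.4% to 24.4%). In the compartment they were 18.6%, 4.39% and 10.2%. T-cell markers, read as a level of free RNA in cells that should lack them, were found in 19.0%, 0.704% and 2.12% of myeloid cells and in 25.1%, 1.245% and 1.39% of compartment cells. In vector the share of compartment cells with a gamma-leaning UMI was thus below that with a T-cell UMI. These shares are not on the same scale. In vector T/NK cells the T-cell markers summed to 3467 CPM and the gamma-leaning genes to 731 CPM. Relative to those T/NK levels, the vector compartment had 9.32% for the T-cell markers and 33.7% for the gamma-leaning genes.

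The members moved more alike within the gamma core than within the type I core. Over the 21 class sums (7 classes in 3 libraries, which share mice and depth), the mean correlation between pairs of members after removing class means was 0.606 within the gamma core, 0.304 within the type I core and 0.368 between them, on a log2 scale of CPM plus 5. Usp18 had a mean correlation of -0.231 with the type I core and -0.428 with the gamma core. Without removing class means the values were 0.596 within the gamma core, 0.491 within the type I core and 0.349 between them. With class means removed, the correlations reflect the differences between the 3 libraries given above and are not separate from them. By member, Irgm1 was called lower in 6 classes, Gbp4, Gbp7, Ifi47, Socs1 and Xaf1 in 5, and Gbp2, Gbp3, Igtp and Irf7 in 4. For Irgm1, Gbp7, Ifi47, Socs1 and Xaf1 these include B/plasma cells, where they passed the filter on low counts through vector alone. Gbp2, Gbp4, Iigp1, Irgm1 and Zbp1 were lower in both KLF2 libraries in all 7 classes, which is 5 of 37 members against 2.82% of the 12361 genes of the joint fit. Some of these orders rest on few UMIs, such as 2, 0 and 0 for Gbp4 and 6, 0 and 1 for Iigp1 in neutrophils. Others were narrow, such as Gbp2 in T/NK cells at 26.96, 24.05 and 22.09 CPM. Ifi44, Ifih1, Ifit2, Ifit3, Ifit3b, Oasl1, Oas2, Oas3, Rsad2, Ddx58, Rtp4, Cmpk2 and Ifitm3 were called in no class.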

How the data were processed

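Tumours were digested and their cells encapsulated in droplets (DNBelab C Series chemistry), per the labels' protocols. The deposited values are raw UMI counts per gene and cell, written by PISA 1.0 per the file headers, and GRCm38 is the build in the submitters' processing notes. The aligner is not given in the sources used here. Barcodes under 300 detected genes or over 25% mitochondrial UMIs were dropped, the members were left out of the 2000 variable genes, and cells were clustered (scanpy 1.11.5, Leiden resolution 1.0). Clusters were named by marker lists. The score limits for naming were set after seeing the data. No doublet caller was run, and an alternative without the 5% of cells with the most UMIs stood in for it. Counts were summed per class and library (at least 50 cells in every library) and tested with edgeR 4.0.16 (TMM, quasi-likelihood, Benjamini-Hochberg over all genes of the fit, threshold 0.05), with DESeq2 1.42.0 as an alternative. With 2 KLF2 libraries and 1 vector library the spread comes from the KLF2 pair alone, and edgeR moderated it across genes. CPM of a class divides by all its UMIs, so a few abundant genes move it. Members and lists were chosen with earlier results of these data known. Members past the threshold are named in each class, up to 10 by size with values and the rest by range. Mx1, Mx2 and the matrix of vector replicate 1 were not analysed here, and 1 gene of the pathway list is not reported here. Alternatives that take off the signal of other classes, leave out low-depth compartment clusters or keep hepatocyte-lineage cells alone were chosen after seeing the data.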

Additional observations from a re-analysis of the deposited data

Results flagged for a closer look

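The change from vector to KLF2 differed between cell classes for 5 members, by the F test of a joint edgeR fit with a KLF2 effect for each class (Benjamini-Hochberg adjustment over all genes of the fit). The adjusted p was 0.00142 for Iigp1, 0.0257 for Gbp7, 0.0276 for Bst2, 0.0382 for Ifi47 and 0.0441 for Trim30a. Of all genes tested 7.74% passed. Class sums of one library share a mouse but were treated as independent in this fit, so these p-values may be too small. For Iigp1 the log2 change ran from -5.19 in the compartment to -0.73 in mesenchymal cells among the classes where it was tested, and for Bst2 from -3.02 in the compartment to 0.63 in neutrophils. Bst2 of neutrophils had 3, 4 and 36 UMIs (29.4, 17.2 and 89.0 CPM), with vector between the KLF2 libraries. The compartment of vector was hepatocyte-lineage-like and that of KLF2 mainly other cells, and the part of this in the differences was not tested.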

How the results depend on the processing

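No paired analysis was possible because no matrix of vector replicate 1 was analysed here, so the groups shared fewer than 2 replicate numbers. Of 1075 values of called members under other settings, 899 kept direction and side of the threshold, 136 no longer passed, 38 moved by more than 1 SE (all with 1 KLF2 library left out) and 2 reversed. With DESeq2 the members called were 1 in T/NK cells, 0 in B/plasma cells, 4 in endothelial and 5 in mesenchymal cells. With the spread shared between classes they were 0 in T/NK, 3 in B/plasma and 7 in endothelial cells. In B/plasma cells a limit of 10% mitochondrial UMIs gave 4, and sums thinned to the lowest total gave 4. In neutrophils RLE scaling gave 2, no filter on low counts 1, and leaving out mitochondrial genes and Gm42418 2. Resolution 0.5 gave 22 in mesenchymal cells, where 736 and 365 KLF2 cells of the compartment joined the class. In the compartment, taking off the signal of other classes gave 8, with Trim30a at a log2 change of 9.81, and hepatocyte-lineage cells alone gave 0, with Iigp1 at 1.27 and Ifngr1 at 0.29. The cause was not tested, except that the last setting holds 10 and 44 KLF2 cells. Leaving out each library in turn gave 17 to 36 members that differed between classes. With 1 KLF2 library left there is no test. None of the 77 calls of a member in a class then changed sign on the TMM scale of the fit. In CPM, Isg15 of endothelial cells, called lower, was at 265 in vector and 278 in KLF2 1. Neutrophils gave no class with at least 500 genes per cell, at most 10% mitochondrial UMIs or resolution 0.5, nor myeloid cells with resolution 0.5. Neutrophils, with 102036 UMIs in vector, and hepatocyte-lineage cells, with 52861 in KLF2 1, are limited by depth.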
